A study of Mus musculus with 3 samples.

Results

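The genes described here encode the proteins of the mitochondrial ribosome, and were taken as every protein-coding gene whose mouse symbol starts with Mrpl (large subunit) or Mrps (small subunit). There were 78 of them among the 54331 features of the table, 49 Mrpl and 29 Mrps genes, and all 78 had a mean value of at least 10 normalized counts and were tested. The cells were RAW 264.7, a male mouse macrophage line of BALB/c background, and all 3 libraries had received lipopolysaccharide (LPS, the bacterial ligand of the receptor TLR4) at 100 ng/mL for 5 h. A control shRNA was carried by 1 library's cells, labelled wild-type, and shRNAs against GIV (Girdin, gene Ccdc88a) by the cells of the other 2, labelled GIV-depleted and, by shRNA, sh1 and sh2. No library without LPS was analysed here, so every level below is a level in LPS-treated cells, and the control has no replicate error. The labels do not say whether the cells were clones or pools, or whether the libraries came from separate experiments.

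The mitochondrial ribosome translates the few mRNAs encoded by mitochondrial DNA, all of which specify subunits of the respiratory chain and ATP synthase. Its proteins are encoded in the nucleus, made in the cytosol and imported, and they assemble on a pair of ribosomal RNAs made inside the organelle. Many descend from bacterial ribosomal proteins, while others are found only in mitochondria. The symbol does not always give the place of a protein: Mrps30 and Mrps18a lie in the large subunit, and Mrps36 is now placed in the alpha-ketoglutarate dehydrogenase complex instead of the ribosome. In macrophages, LPS is known to shift metabolism away from respiration, the process that this ribosome serves.

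Ccdc88a stood at 2580, 1734 and 2561 normalized counts in the control, the sh1 library and the sh2-labelled library. With log2 differences of -0.57 and -0.01, the target's mRNA in the library labelled sh2 went against that label. Library totals were 47349097 to 49756670 normalized counts. All 10 macrophage markers were tested, and their summed level was 466997 in the control against 360515 and 380769 in the sh1 and sh2-labelled libraries. Of these markers 6 were lower in both libraries, 1 was higher in both (Ptprc) and 3 were mixed. The largest parts of the sum were Lyz2 at 199781, 121997 and 138145 and Cd14, of mixed direction, at 119577, 122965 and 112411. Of 5 epithelial markers 4 were at 0 in every library, and the summed level of 6 fibroblast markers was 3.34 to 5.61. Col3a1, Cd3e and Ly6g were at 0 in all 3 libraries. Summed lymphocyte markers were at 11.2 to 38.3, highest in the sh2-labelled library, and summed neutrophil and mast cell markers at 45.6 to 77.4. Whether the lower macrophage marker sum has a part in the results below was not tested, and in bulk RNA fewer cells of a type and less RNA per cell cannot be told apart.

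Stretches of DNA that precede these genes are shown because the cores of NRF1, GABPA and YY1, transcription factors known to act on nuclear genes for mitochondrial proteins, recur in them. Each is the 250 bases before the RefSeq start in GRCm38.p6, read 5′ to 3′ on the strand of the gene, with matches in capitals. Mrpl34 (chr8:71464676-71464925, plus strand) had the second most negative difference that both libraries shared, Mrps27 (chr13:99344536-99344785, plus strand) the second most positive, Mrps11 (chr7:78782881-78783130, plus strand) shares its start region with Mrpl46, and Mrpl32 (chr13:14613038-14613287, minus strand) held matches to more than 1 factor.
Mrpl34: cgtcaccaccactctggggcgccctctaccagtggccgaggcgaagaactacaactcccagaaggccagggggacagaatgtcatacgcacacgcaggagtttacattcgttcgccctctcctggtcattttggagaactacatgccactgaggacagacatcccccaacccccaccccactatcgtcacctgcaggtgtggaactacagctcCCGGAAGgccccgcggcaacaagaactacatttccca
Mrps27: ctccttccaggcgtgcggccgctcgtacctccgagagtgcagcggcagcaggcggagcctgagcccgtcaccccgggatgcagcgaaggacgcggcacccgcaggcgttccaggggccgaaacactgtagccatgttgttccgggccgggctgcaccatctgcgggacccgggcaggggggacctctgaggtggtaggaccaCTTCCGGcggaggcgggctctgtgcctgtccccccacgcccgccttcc
Mrps11: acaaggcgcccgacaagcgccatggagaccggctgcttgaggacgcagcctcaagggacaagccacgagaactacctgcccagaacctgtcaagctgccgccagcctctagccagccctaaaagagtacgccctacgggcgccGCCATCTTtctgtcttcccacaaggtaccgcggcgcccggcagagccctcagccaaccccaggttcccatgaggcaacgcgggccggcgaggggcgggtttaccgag
Mrpl32: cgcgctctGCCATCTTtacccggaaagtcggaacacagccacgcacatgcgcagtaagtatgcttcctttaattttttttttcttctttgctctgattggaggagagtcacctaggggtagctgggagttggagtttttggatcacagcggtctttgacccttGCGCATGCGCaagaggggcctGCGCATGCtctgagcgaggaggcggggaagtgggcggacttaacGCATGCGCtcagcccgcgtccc

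The capitals mark the GABPA core CCGGAAG in Mrpl34 and its reverse complement CTTCCGG in Mrps27. In Mrps11 they mark GCCATCTT, the reverse complement of the YY1 core AAGATGGC. In Mrpl32 they mark GCCATCTT and 3 places with the NRF1 core GCATGCGC or its reverse complement GCGCATGC, of which the place nearest the 5′ end holds overlapping matches on both strands. No NRF1, GABPA or YY1 match in the other stretches shown overlaps a match to another of these factors.

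Promoter windows of 300 bases (250 before to 50 after the start) were held by RefSeq for 69 of the 78 genes, 75 windows in all. The GABPA core, searched on both strands, was in 34.7% of these windows, against 18.3% of the windows of tested protein-coding genes and 8.86% of all 32851 windows. The YY1 core was in 16% of the windows, against 4.65% and 2.75%. The NRF1 core was in 10.7%, against 5.30% and 2.71%. At least 1 of the 3 cores was in 50.7% of the windows, against 25.7% and 13.3%. By subunit, the NRF1 core was in 7 of 48 large subunit windows and 1 of 27 small subunit windows, while the YY1 core was in 6 of 48 and 6 of 27. A match is a string of letters, not a bound site.

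Levels differed among the genes far more than between the libraries. Mean values over the 3 libraries ran from 377 normalized counts for Mrpl55 to 5251 for Mrpl24, with a median of 1804 (Mrpl24 encodes the homologue of bacterial L24). The genes together took 0.322% of all normalized counts in the control, 0.306% in the sh1 library and 0.311% in the sh2-labelled library. The median level of large subunit genes was 1857 (control), 1723 (sh1) and 1896 (sh2-labelled) normalized counts, and that of small subunit genes 1753, 1796 and 1596. Large subunit genes summed to 2.24 times the small subunit genes in the control, 2.17 times in the sh1 library and 2.15 times in the sh2-labelled library.

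Per kb of the longest annotated coding transcript, Mrpl52, a mitochondria-specific large subunit protein, was the highest of all at a mean level of 10620 normalized counts per kb. It was followed among large subunit genes by Mrpl20 at 4782 per kb, homologue of bacterial L20, and Mrpl24 at 3922 per kb. The lowest large subunit levels per kb were those of Mrpl57 (257), Mrpl58 (344) and Mrpl48 (387). Among small subunit genes Mrps21, homologue of bacterial S21, was highest at 3500 per kb, followed by Mrps18a at 2685 and Mrps18b at 2445. Mrps35 was lowest at 179 per kb, with Mrps25 at 313 and Mrps17 at 338. The span from Mrpl52 to Mrps35 was 59.2-fold. This order depends on the transcript taken as the gene's length: with the shortest annotated coding transcript the 3 lowest large subunit genes became Mrpl57, Mrpl47 and Mrpl35, and the level of Mrpl58 became 1191 per kb. Among small subunit genes Mrps23 then led at 5750 per kb, ahead of Mrps21 at 4217, and Mrps16 took the place of Mrps17 among the 3 lowest.

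No gene of the mitochondrial ribosome passed the test of the pair of GIV-labelled libraries against the control. In limma on log2(value + 1), with Benjamini-Hochberg adjustment over 13877 features, 0 of 78 genes and 0.0% of all features had an adjusted p under 0.05. The lowest adjusted p among the genes was 0.690, for Mrpl57. At an unadjusted p under 0.05, limma placed 1 gene lower (Mrpl57) and 0 higher, against 2.42% of all features lower and 4.52% higher. This fit has 1 residual degree of freedom, taken from the 2 libraries with different shRNAs, and fits without the variance trend likewise called 0.

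By direction, 42 of the 78 genes (53.8%) were lower than the control in both libraries, against 35.2% of all features tested. Another 16 genes (20.5%) were higher in both, against 34.9% of all features, and 20 went opposite ways. These differences share the control library, so an unusual value in that library moves both. The median log2 difference from the control was -0.06 in the sh1 library and -0.07 in the sh2-labelled library, beside 0.00 and 0.00 for all features. The direction counts thus lean to lower values, by an amount that is small for the single gene.

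**Figure D1:**
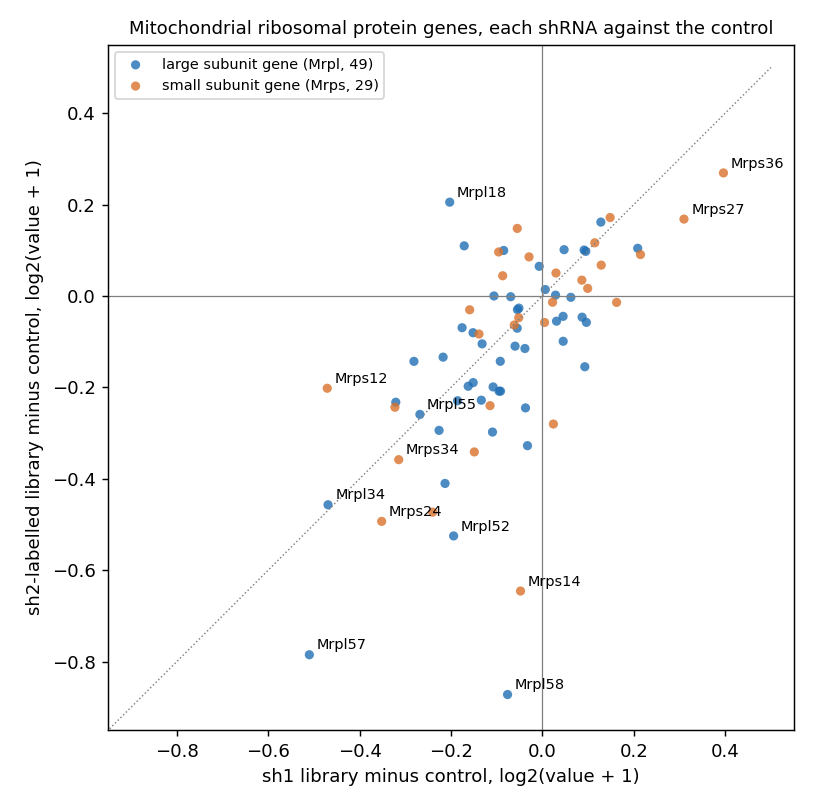
Log2 difference from the control in the sh1 library (x axis) and in the sh2-labelled library (y axis), on log2(value + 1), for 49 large and 29 small subunit genes, 1 point per gene. The dotted line marks equal differences; 42 points lie at the lower left of the zero lines and 16 at the upper right, while Mrpl58 and Mrps14 lie far below the line.

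The differences were narrowly spread. A size rule was set at 0.32 on the log2 scale, a value at least 25% above or 20% below the other. In the sh1 library, 72 of 78 genes (92.3%) stayed within it, against 64.5% of all features and 74.8% of the 6735 features whose mean values lie between those of Mrpl55 and Mrpl24. In the sh2-labelled library, 67 of 78 (85.9%) did, against 63.6% and 74.8%. The interquartile range of the mean differences of the genes ran from -0.18 to 0.02 on the log2 scale, against -0.20 to 0.20 for all features. Counting error alone gives a difference an SD of about 0.11 for the gene with the lowest mean value and 0.05 for the median gene, which leaves out every other source of error.

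Past the size rule, 5 genes were lower in the sh1 library (all features: 17.7%): Mrpl57, Mrps12, Mrpl34, Mrps24 and Mrps26. Only Mrps36 was higher by that rule in that library (all features: 17.8%). In the sh2-labelled library, 11 genes were lower (all features: 17.4%), among them Mrpl58, Mrpl57, Mrps14 and Mrpl52, and 0 were higher (all features: 19.0%). Mrpl57, Mrpl34 and Mrps24 were lower by the rule in both. Both shares of lower genes, 6.41% and 14.1%, were below those of all features. Of the 6735 features in the same range of mean values, 792 were lower by the rule in the sh1 library and 754 in the sh2-labelled library. Beside that range, the share of 6.41% was lower and that of 14.1% higher.

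Large and small subunit genes were compared next. Of 49 large subunit genes, 30 (61.2%) were below the control in both libraries and 7 above it in both. Of 29 small subunit genes, 12 (41.4%) were lower in both and 9 (31.0%) higher in both. Among all features tested, 35.2% were lower in both and 34.9% higher in both, so the small subunit shares were nearer to these. The median mean difference was -0.08 for large and -0.02 for small subunit genes on the log2 scale, a gap of -0.06, with a gap of -0.04 in the sh1 library and -0.09 in the sh2-labelled library. Proteins were then placed where they lie in the ribosome, with Mrps36 left out and the 5 subunits that carry other symbols added. In this set the medians were -0.07 for 52 large and -0.05 for 30 small subunit genes, a gap of -0.02. Then 30 of 52 large and 15 of 30 small subunit genes were lower in both. The gap was thus smaller in this changed set than by symbol, and with a single control no test of it over libraries was made.

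**Figure D2:**
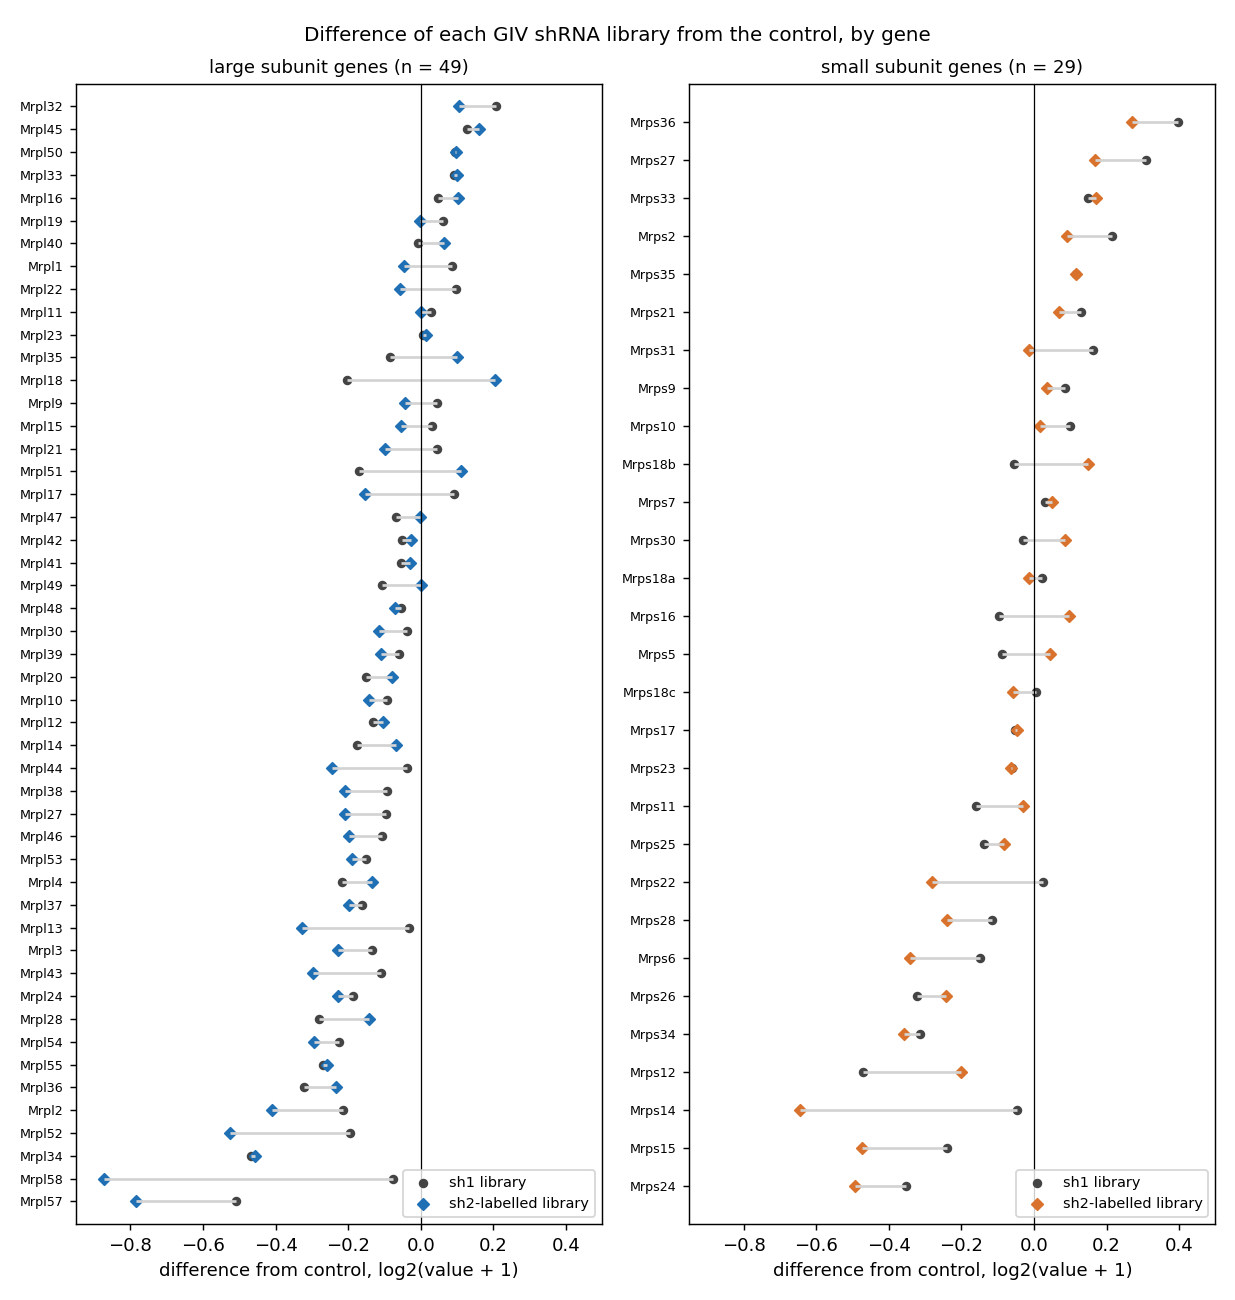
Log2 difference from the control for every gene, large subunit genes left and small subunit genes right, ordered by the mean of both libraries; circles are the sh1 library, diamonds the sh2-labelled library, and a grey line joins them. Most genes lie between -0.32 and 0.32 in both libraries, with Mrpl57 lowest by mean and Mrps36 highest.

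Descent from bacteria was a second split. The 48 genes with a bacterial homologue had a median mean difference of -0.03 on the log2 scale. Of them, 24 were lower in both libraries (all features: 35.2%). The 29 mitochondria-specific genes had a median of -0.08, and 18 of them were lower in both. Among the mitochondria-specific proteins of the large subunit, 14 of 20 genes were lower in both and the median was -0.11. Of the 9 in the small subunit, 4 were lower in both and 3 higher in both (all features: 35.2% and 34.9%). In the sh1 library the medians of the bacterial and mitochondria-specific classes were alike, at -0.062 and -0.061. In the sh2-labelled library they were -0.058 and -0.083. With the trend over transcript length and GC content removed, the median mean differences of the classes were -0.078 and -0.075. Within the large subunit they were then -0.084 and -0.087.

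Mrpl57 (chromosome 14, 57826234 to 57829296, plus strand, GRCm38), which encodes a mitochondria-specific protein of the large subunit, had the most negative shared difference. It stood at 973, 683 and 565 normalized counts in the control, sh1 and sh2-labelled libraries. Both were below the control, by log2 differences of -0.51 and -0.78, with a mean of -0.65 (SE 0.21, limma unadjusted p = 0.038, Benjamini-Hochberg adjusted p = 0.690). The divergent neighbour Ska3, whose start lies 49 bases away, stood at 578, 540 and 575, close to the control in both libraries.

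Mrpl34 (chromosome 8, 71464959 to 71465747, plus strand) encodes the homologue of bacterial L34, a small protein of the large subunit. It stood at 726 normalized counts in the control, 524 in the sh1 library and 529 in the sh2-labelled library. The sh1 and sh2-labelled libraries were nearly alike, at log2 differences of -0.47 and -0.46 from the control (limma mean -0.46, SE 0.19, adjusted p = 0.731). Removing the trend with transcript length and GC content took the mean difference to -0.30.

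Mrps24 encodes the homologue of bacterial S3, a protein at the mRNA entry of the small subunit. It stood at 678, 531 and 481 normalized counts in the control, sh1 and sh2-labelled libraries, log2 differences of -0.35 and -0.49. Urgcp shares 226 exon bases with it on the same strand and stood at 1574, 759 and 901, also highest in the control. Whether reads of Urgcp entered the value of Mrps24 was not tested.

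Mrps34, a mitochondria-specific small subunit protein, stood at 1056, 849 and 824 normalized counts in the same order, log2 differences of -0.31 and -0.36. It shares 763 exon bases on the same strand with Nme3, which stood at 272, 164 and 196, and lies across from Mapk8ip3 at 3494, 2527 and 2847, all highest in the control. With the trend for length and GC content removed the mean difference of Mrps34 was -0.16, from -0.34. Mrpl55, homologue of bacterial L31, stood at 424, 352 and 354, log2 differences of -0.27 and -0.26. Each of these genes was highest in the control, with no Benjamini-Hochberg adjusted p under 0.690 in limma.

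Mrps12, homologue of bacterial S12, a protein of the decoding centre, stood at 622 normalized counts in the control, 449 in the sh1 library and 541 in the sh2-labelled library. Sars2, the mitochondrial seryl-tRNA synthetase, starts 172 bases away on the other strand and stood at 672, 552 and 614. Both genes of this divergent pair were lowest in the sh1 library and intermediate in the sh2-labelled library. Mrpl12, homologue of the bacterial stalk protein L7/L12 that recruits translation factors, stood at 3438, 3138 and 3198, log2 differences of -0.13 and -0.10, and its mean difference went from -0.12 to -0.02 with the length and GC trend removed.

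Of the genes higher in both libraries, Mrps36 had the most positive shared difference. It stood at 616 normalized counts in the control, 811 in the sh1 library and 743 in the sh2-labelled library, log2 differences of 0.40 and 0.27 (limma mean 0.33, SE 0.18, adjusted p = 0.772). As said above, its protein belongs to the alpha-ketoglutarate dehydrogenase complex, so the only gene higher by the size rule in the sh1 library lies outside the ribosome.

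Mrps27, a small subunit protein with pentatricopeptide repeats, stood at 1391, 1725 and 1564 normalized counts in the control, sh1 and sh2-labelled libraries. The log2 differences were 0.31 and 0.17, just under the size rule in the sh1 library. Ptcd2, another pentatricopeptide protein of mitochondria, starts 81 bases away on the other strand, within the stretch printed above, and stood at 1229, 1490 and 1408. Both genes of this pair were highest in the sh1 library.

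Mrps33, a mitochondria-specific small subunit protein, stood at 1417, 1570 and 1596 normalized counts, and Mrps35, of the same class, at 707, 766 and 767. Mrpl45, which lies at the exit of the large subunit's tunnel and helps to anchor the ribosome to the inner membrane, stood at 2766, 3023 and 3095. The log2 differences of these genes lay between 0.11 and 0.17 in both libraries. The mean difference of Mrps35 was 0.12, and 0.02 once the trend with length and GC content was removed.

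**Figure D3:**
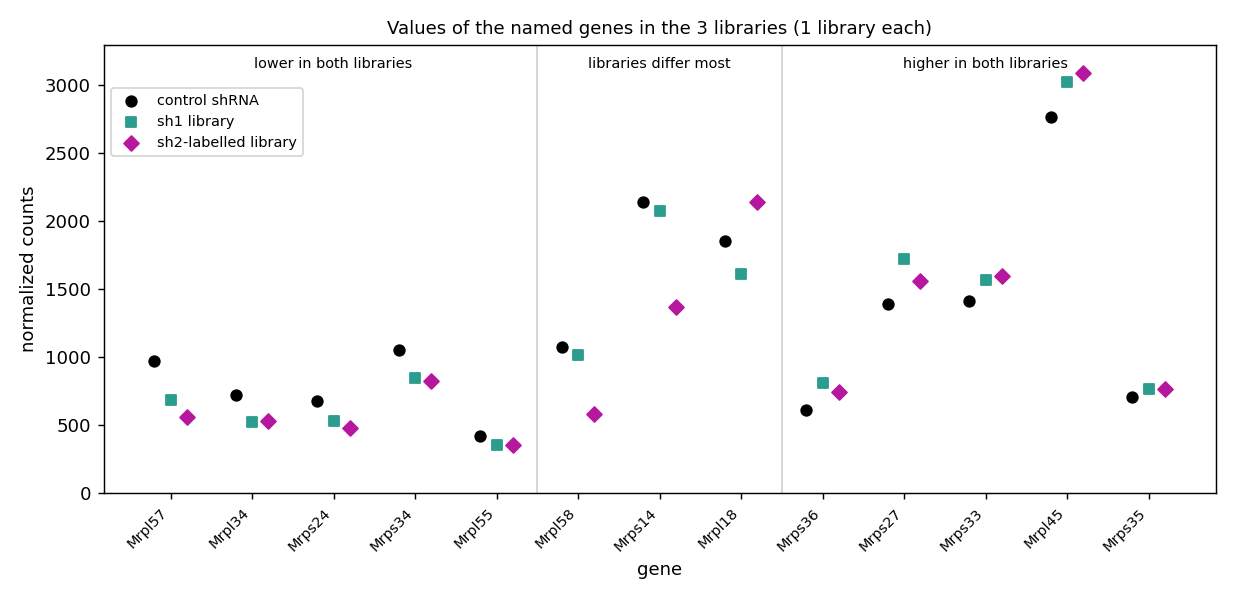
Normalized counts of 13 genes in the control library (circles), the sh1 library (squares) and the sh2-labelled library (diamonds), 1 library each, with no error bars. Mrpl57, Mrpl34, Mrps24, Mrps34 and Mrpl55 are highest in the control, Mrpl58 and Mrps14 are low in the sh2-labelled library alone, and the 5 genes at the right are lowest in the control.

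The sh1 and sh2-labelled libraries, compared with each other, do not share a control. Between them 1 gene passed the size rule as higher in the sh2-labelled library (all features: 17.9%) and 3 were lower (all features: 14.7%). Mrpl58, also known as ICT1, a peptidyl-tRNA hydrolase built into the large subunit that rescues stalled ribosomes, stood at 1073 normalized counts in the control, 1017 in the sh1 library and 586 in the sh2-labelled library. Only the sh2-labelled library was low, with a log2 difference of -0.80 from the sh1 library. Its Ccdc88a value was near that of the control.

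Mrps14, homologue of bacterial S14 in the head of the small subunit, stood at 2146, 2076 and 1372 normalized counts, again low in the sh2-labelled library alone, with a log2 difference of -0.60 from the sh1 library. Mrpl52 stood at 5742, 5019 and 3990, lower in each library and more so in the sh2-labelled library. Mrpl18, homologue of bacterial L18, which binds 5S rRNA in bacteria, stood at 1858, 1615 and 2143, below the control in the sh1 library and above it in the sh2-labelled library. With 1 library a side, these differences have no replicate check.

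Mrps26, Mrps15, Mrpl2, Mrps6 and Mrpl13 were the other genes lower by the size rule in a single library. Mrps26, a mitochondria-specific small subunit protein, stood at 2464, 1970 and 2081 normalized counts in the control, sh1 and sh2-labelled libraries, past the rule in the sh1 library alone. Mrps15, homologue of bacterial S15, stood at 2254, 1909 and 1624, and Mrpl2, homologue of bacterial L2 near the peptidyl transferase centre, at 1200, 1035 and 903. Both were lowest in the sh2-labelled library. Mrps6, homologue of bacterial S6, stood at 2004, 1807 and 1582, and Mrpl13, homologue of bacterial L13, at 3468, 3390 and 2763. Just outside the rule in the sh1 library lay Mrpl36, homologue of bacterial L36, at 1097, 878 and 933.

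Genes of single regions of the large subunit did not all go the same way. At the stalk and its base, Mrpl10 stood at 2429, 2279 and 2200 normalized counts, lower in both libraries like Mrpl12, while Mrpl11 stood at 2027, 2068 and 2030. Around the exit tunnel, Mrpl24 stood at 5765, 5070 and 4919, Mrpl22 at 1202, 1285 and 1154 and Mrpl23 at 1583, 1590 and 1599. Of these, only Mrpl24 was lower in both libraries, by log2 differences of -0.19 and -0.23. Mrpl3 and Mrpl4, homologues of bacterial L3 and L4, stood at 4549, 4147 and 3884 and at 2960, 2547 and 2698, both lower in each library. These genes were named for the place of their proteins, after their values were seen.

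The paralogs Mrps18a, Mrps18b and Mrps18c, all related to bacterial S18, stayed near the control. Mrps18a stood at 2369, 2406 and 2347 normalized counts in the control, sh1 and sh2-labelled libraries, Mrps18b at 2577, 2481 and 2855, and Mrps18c at 1629, 1634 and 1565. Each went opposite ways in the sh1 and sh2-labelled libraries. Mrps30, a large subunit protein despite its symbol, stood at 1911, 1873 and 2028. The mean difference of Mrps18a was 0.00, and -0.03 with quantile normalization. That of Mrps30 was 0.03, and -0.07 with the length and GC trend removed, so no direction is given for either.

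Differences of the genes went with the base composition of their transcripts. Of the 39 genes with a GC content of at least 50%, 29 were lower than the control in both libraries, against 13 of the 39 genes under 50%. Of all features tested, 35.2% were lower in both, with no count of them by GC content. The median mean difference was -0.15 in the GC-rich genes and -0.01 in the others. Across the 78 genes Spearman's rho of the difference with GC content was -0.48 in the sh1 library and -0.35 in the sh2-labelled library, and the points share all 3 libraries. Across 11611 tested protein-coding genes it was -0.26 and -0.20, so the same lean was present among these genes. Between the sh1 and sh2-labelled libraries, rho with GC content was 0.06.

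Transcript length gave a weaker relation, with rho of 0.22 and 0.20 across the 78 genes, beside 0.21 and 0.20 across tested protein-coding genes. Of 46 genes with transcripts under 1500 bases, 30 were lower in both libraries, against 12 of 32 longer ones (all features: 35.2%). With the trend on length and GC content over protein-coding genes removed, the median mean difference was -0.09 for large and -0.03 for small subunit genes, beside -0.04 for all features. By place in the ribosome, the medians after that correction were -0.08 for large and -0.04 for small subunit genes. Whether GC content, or the handling of RNA or libraries that can go with it, has a part in the lower values was not tested beyond this correction.

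**Figure D4:**
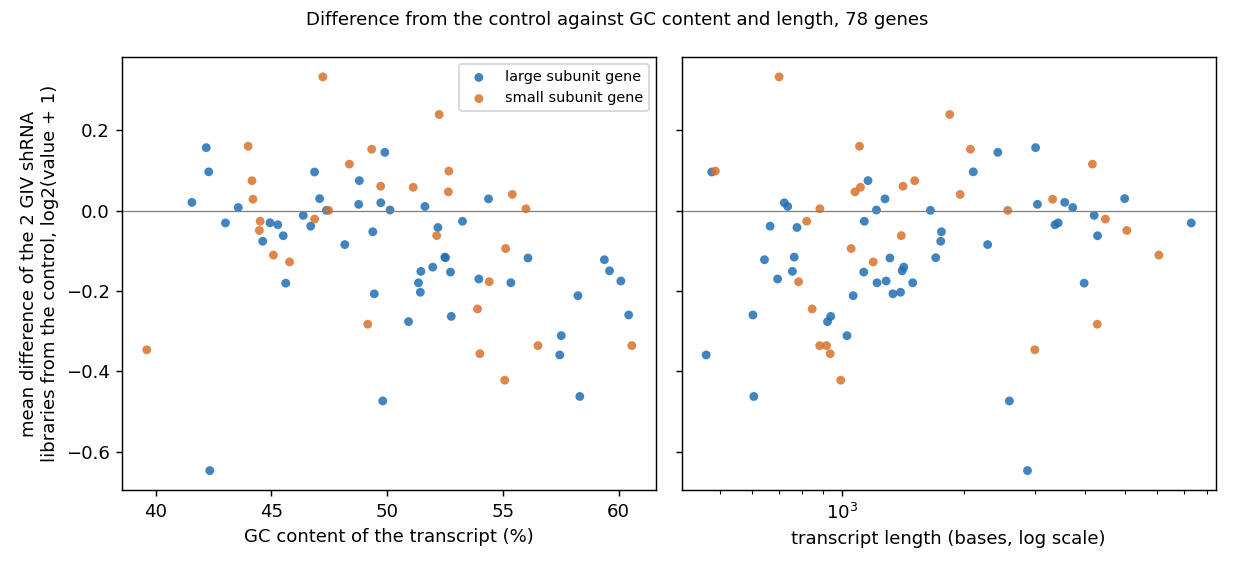
Mean log2 difference of the libraries labelled GIV-depleted from the control, on log2(value + 1), against transcript GC content in percent (left) and transcript length in bases on a log axis (right), 1 point for each of 78 genes. Points at a GC content of 50% or more lie mostly below 0 (29 of 39 lower in both libraries, all features: 35.2%). Mrpl57, the lowest point, has a GC content of 42.3%.

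Genes that start next to these genes were read as well. By the annotation, 23 genes of the mitochondrial ribosome start head to head with another gene within 1000 bases, and 22 of these neighbours were tested. Of the neighbours, 7 were below the control in both libraries and 8 above it, shares near those of all features (35.2% and 34.9%). Both genes were lower in both libraries in 5 pairs, and both were higher in 3, with no count of other gene pairs beside these. The widest contrast was at Mrps7, homologue of bacterial S7, which stood at 2776, 2834 and 2875 normalized counts. Its overlapping divergent neighbour Gga3, a sorting adaptor of the Golgi, stood at 1161, 4076 and 4003, chosen for mention after its values were seen.

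Reads of some genes could be shared with copies. A processed pseudogene at least 95% identical over 200 or more bases was found for 19 genes, and for 4 of them the copy had a mean value of at least 10. Mrpl48 stood at 1708, 1644 and 1626 normalized counts and its copy Mrpl48-ps at 447, 511 and 614, so that their sum was 2155, 2155 and 2241. For Mrps33 the copy Gm5776 stood at 411, 494 and 577, higher in the same libraries as Mrps33 itself. The copy of Mrps10 stood at 831, 895 and 840, and that of Mrpl51 at 0, 0 and 42.5. Exons of 24 genes overlapped another gene of mean value at least 10 by 50 bases or more, 18 of them on the opposite strand. The kit keeps strand, but how strand was set in counting is not stated in the labels. Of the 51 genes with no such copy or overlap, 19 of 32 large and 7 of 19 small subunit genes were lower in both libraries. Among all features tested, 35.2% were lower in both.

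Genes with and without a GABPA or YY1 core had like medians of the mean difference, but not in each library. The 26 genes with a GABPA core had a median mean difference of -0.05 on the log2 scale, and the 43 genes without it also -0.05. The 12 genes with a YY1 core had a median of -0.05, and the 57 without it -0.05. By library, medians with and without the YY1 core were -0.095 and -0.055 (sh1) and -0.020 and -0.069 (sh2-labelled). For GABPA they were -0.069 and -0.054 (sh1) and -0.085 and -0.044 (sh2-labelled). The 8 genes with an NRF1 core, Mrpl32 among them, had a median mean difference of 0.01, against -0.06 in the 61 without it. That gap was in the sh1 library (0.07 against -0.08), while the medians in the sh2-labelled library were -0.05 and -0.06, and of the 8 genes 2 were lower and 2 higher in both. Mrpl32, homologue of bacterial L32, stood at 1857, 2146 and 1997 normalized counts, higher in both libraries. Mrps11 stood at 819, 733 and 802 and Mrpl46, which starts beside it, at 1406, 1305 and 1225, both lower in both libraries. Of the factors, Nrf1 itself stood at 1167, 1544 and 1542, Gabpa at 4447, 4264 and 4219 and Yy1 at 4374, 5032 and 4306. Myc, a regulator of genes for mitochondrial proteins, stood at 2766, 2285 and 2150, and Ppargc1a, a coactivator, at 0 in all 3 libraries.

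The other genes of mitochondrial translation were read beside the ribosomal proteins, from lists by role, and none passed an adjusted p of 0.05 in limma. Of the 5 subunits with other symbols, 3 were lower than the control in both libraries and 0 higher (all features: 35.2% and 34.9%). Among them the GTP-binding small subunit protein Dap3 stood at 2996, 2856 and 2883 normalized counts. Of 15 translation factors 7 were higher in both and 3 lower in both (all features: 34.9% and 35.2%). Tufm, the elongation factor Tu of mitochondria, stood at 4544, 5517 and 5460, higher in both libraries. 2810006K23Rik, of the release factor family, had the most positive shared difference at 258, 364 and 339, and Guf1, an elongation factor 4 homologue, the most negative at 1229, 1114 and 1144.

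Of 27 assembly factors of the ribosome 9 were higher and 9 lower in both libraries, shares near those of all features (34.9% and 35.2%). Mettl17, a factor of small subunit assembly, stood at 292, 1542 and 673 normalized counts, higher in both libraries with unlike sizes. Dhx30, an RNA helicase needed for assembly and named here after its values were seen, stood at 2711, 4799 and 4903 (limma mean log2 difference 0.84, adjusted p = 0.299). Gtpbp6, a GTPase of ribosome recycling and large subunit assembly, stood at 1240, 831 and 836. Among the ribosomal protein genes, only Mrpl57 had a mean log2 difference as large as the -0.57 of Gtpbp6.

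Of 20 mitochondrial tRNA synthetases and their partners 6 were higher and 7 lower in both, again near the shares of all features. The libraries differed here, with 14 genes below the control in the sh1 library and 7 in the sh2-labelled library. Of all 13877 features tested, 6907 and 6985 were below it. The median log2 differences of the 20 genes were -0.10 and 0.11. Only 2 of the 20 were lower in the sh2-labelled than in the sh1 library, against 7001 of the 13877 features. Nars2, for asparagine, stood at 391, 651 and 453 normalized counts and Ears2, for glutamate, at 609, 496 and 527. Among 16 factors of mitochondrial DNA and RNA 7 were higher and 5 lower in both (all features: 34.9% and 35.2%). Polg, the catalytic subunit of the mitochondrial DNA polymerase, stood at 1336, 3122 and 5891 and Polrmt, the mitochondrial RNA polymerase, at 1106, 775 and 967.

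The mRNAs that the mitochondrial ribosome translates were lower. Of 13 mRNAs encoded by mitochondrial DNA 12 were below the control in both libraries and 0 above it (all features: 35.2% and 34.9%). Their median mean difference was -0.56 on the log2 scale, beside -0.06 for the ribosomal proteins. mt-Nd4, a subunit of respiratory complex I, stood at 35815, 20279 and 24004 normalized counts (limma mean log2 difference -0.70, adjusted p = 0.532). The ribosomal RNA mt-Rnr2 stood at 7979, 8048 and 12211 and mt-Rnr1 at 17871, 15310 and 21858, both highest in the sh2-labelled library. These RNAs were read from libraries made with an mRNA kit, so their level also depends on how they were captured.

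**Figure D5:**
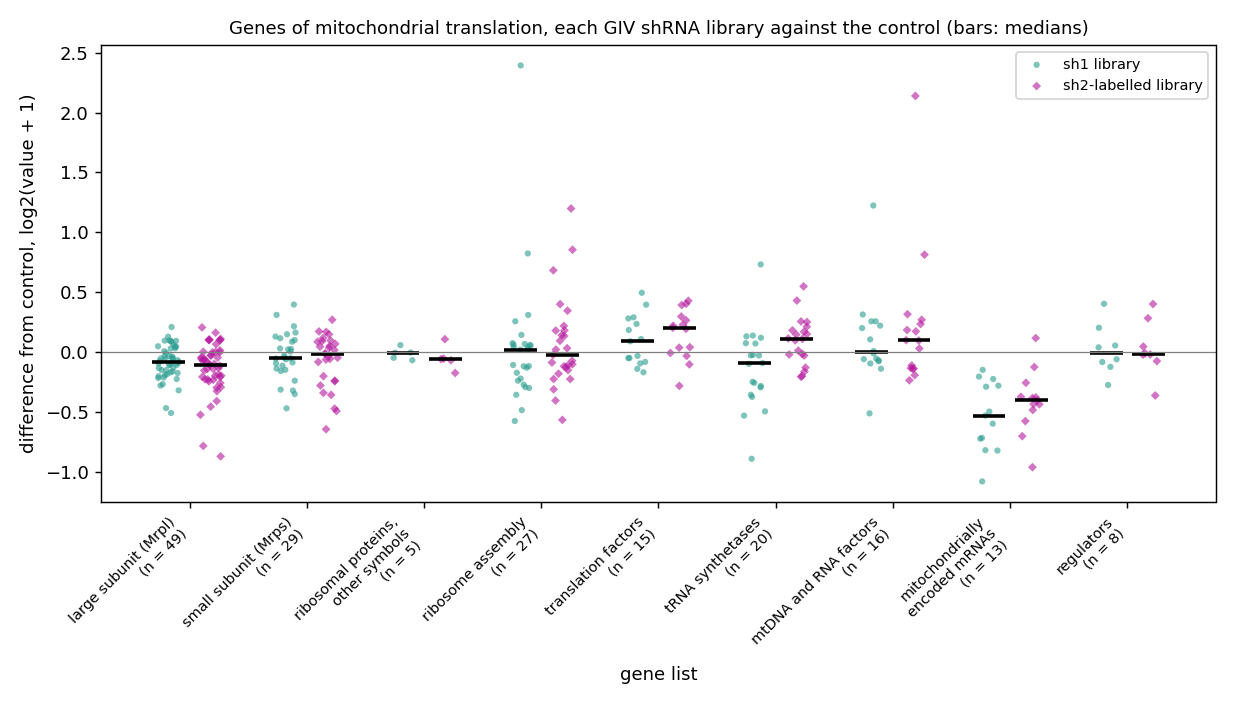
Log2 difference from the control, on log2(value + 1), for the tested genes of each list by role, with circles for the sh1 library, diamonds for the sh2-labelled library and bars for the median of each. Medians of the large and small subunit genes lie between -0.10 and -0.01, those of the mitochondrially encoded mRNAs at -0.53 and -0.40, and single genes of the assembly and mtDNA lists exceed 1.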

How the data were processed

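Stranded mRNA sequencing of 3 libraries was used. The deposited values are the authors' normalized counts per gene, taken as a signal on a linear scale. The submitters' processing notes name Salmon, DESeq, DESeq2 and the build GRCm38 but no versions or roles. The annotation release was not given in the sources used here. Gene identifiers were matched to GENCODE M21 (GRCm38), with a symbol for 54097 of 54331.

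Features with a mean of at least 10 were put on the log2(value + 1) scale, which understates the change of low genes, and fitted with limma 3.58.1 in R 4.3.3, two-sided, with Benjamini-Hochberg adjustment over 13877 features. A value of about 1 stood for 1 read (0.931, 1.11 and 0.966 in the control and the sh1 and sh2-labelled libraries). The control has 1 library and is assumed to vary as the others do, and p-values measure the spread between libraries that may not be independent cultures. The fit was tested on simulated data. The noise there was alike in every library, and the changes set were larger than those of the ribosomal protein genes. It therefore does not show what the fit can find at the sizes seen here. For single libraries a size rule (25% above or 20% below) replaced a test.

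Genes named are the 5 higher and 5 lower with the largest shared difference, the 3 that differed most between the sh1 and sh2-labelled libraries, the 3 highest and lowest per kb of each subunit, the S18 paralogs, Mrps30, Mrps36, Mrpl12 and Mrps12, and the extreme pair of each other list. Others were named after their values were seen. The genes and lists were chosen with earlier results of these data known. Copies were searched with BLAST 2.17.0. Alternatives covered the pseudocount, low-value filter, scaling, length and GC trend, fold rule, subunit assignment and each GIV-labelled library left out. Subunit assignment was by place, with subunits of other symbols added and Mrps36 left out.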

Additional observations from a re-analysis of the deposited data

How the results depend on the processing

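In limma, 0 ribosomal protein genes had an adjusted p under 0.05 in any fit run. No paired analysis was possible because the control has 1 library, and fits without a GIV-labelled library have no test. Scaling columns to equal totals gave a large subunit median of -0.0684, turned the medians of sh2-labelled against sh1 from -0.04 to 0.03 (both subunits: 0.0333 and 0.0277) and gave 3 higher genes there. This scaling shifted the median of all features between these libraries, from -0.002 to 0.05 in the sh2-labelled library. Quantile normalization gave medians of -0.1059 (large) and -0.0458 (small). With the length and GC trend removed, 2 genes were higher and 3 lower by the size rule in the sh1 library. At 1.5-fold, 0 were higher and 0 lower there, 3 lower in the sh2-labelled library and 0 higher between the sh2-labelled and sh1 libraries. Placement by position in the ribosome, with the 5 subunits of other symbols added and Mrps36 left out, gave medians of -0.0696 and -0.0542. The gap was then -0.0153. Leaving out each GIV-labelled library gave medians of -0.1046 to -0.0846 (large) and -0.0478 to -0.014 (small), and gaps of -0.0907 to -0.0368. With copies and overlaps left out, a choice made after seeing the data, 19 large and 7 small subunit genes were lower in both, from fewer genes. Other causes were not tested. Of the alternatives for single named genes, 97 moved by less than the spread between the libraries and 17 by more. A single control and 2 unlike shRNAs limit every comparison.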
